A study of Glycine soja with 4 samples.

Results

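The miR2218, miR482 and miR1507 families of wild soybean (*Glycine soja*) roots were taken from the deposited miRNA lists as every name of miR2218, miR482 or miR1507, with either strand of the precursor included. They were 10 of the 232 names in the lists and stood for 8 of 217 distinct sequences, since gso-miR482a and gso-miR482b shared one sequence and gso-miR1507a and gso-miR1507b another. miR2218 had 2 distinct sequences, miR482 had 3 and miR1507 had 3. Seedlings of the line BW69 grew at pH 4.5 with AlCl3 at 0 µM (Al-free) or 50 µM (Al-treated), and roots up to 10 cm from the apex were taken at 7 times between 1 and 96 h. All times were pooled for each condition, which gave 1 small RNA library and 1 degradome library of Al-free roots and 1 of each of Al-treated roots. There were thus no replicates, and every test here compares reads of 2 libraries and not 2 conditions. With each distinct sequence counted once, the lists summed to 30411 raw reads for Al-free roots and 44493 for Al-treated roots.

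MicroRNAs guide Argonaute proteins to complementary transcripts. In plants, miRNAs of 22 nt are known for starting the production of phased secondary siRNAs from transcripts that they cut, which miRNAs of 21 nt rarely do. The miR482 and miR1507 families of legumes are known to pair with transcripts of NB-LRR disease resistance genes. The sequence listed as gso-miR2218 is known in cultivated soybean as miR2118, of the same superfamily as miR482.

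The abundant strands of the 3 families are shown first because their seeds set them apart from each other, while their length and first base are the same. The seed, bases 2 to 8 from the 5′ end, is in capitals.
gso-miR2218: tTGCCGATtccacccattccta
gso-miR482a and gso-miR482b: tCTTCCCTacacctcccatacc
gso-miR1507a and gso-miR1507b: tCTCATTCcatacatcgtctga
PC-3-3p, listed as a predicted candidate: cCTCATTCcaaacatcatctaa
The abundant strands of all 3 families were 22 nt long and began with T, as did 17 of the 34 listed sequences of that length. Their GC content was 50% for gso-miR2218, 54.5% for the miR482 sequence and 40.9% for the miR1507 sequence. No other listed sequence had the seed of gso-miR2218 or of miR482, and PC-3-3p was the single other sequence with the seed of miR1507. PC-3-3p differed from the miR1507 sequence at 4 of 22 positions, by the substitutions T1C, T11A, G17A and G21A (the base of miR1507 stands first, and position 1 is the 5′ end). The study's supplement gives the sequence of PC-3-3p a name of the miR1507 family, and that of PC-23-5p a name of the miR482 family. The deposited lists do not use these names, so these candidates were kept apart from the members. Without an offset, gso-miR2218 and the miR482 sequence were identical at 6 positions, whereas an offset of 2 bases gave 14 identical bases over an overlap of 20. The best ungapped alignment of the miR1507 sequence gave 10 identical bases over 20 with gso-miR2218 and 10 over 19 with miR482.

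The second strands, named p5, are shown because they separate precursors whose abundant strand is the same. Capitals mark bases that differ from gso-mir1507a-p5 and are used only in the miR1507 group.
gso-mir2218-p5: ggagatgggagggtcggtaaag
gso-mir482a-p5: gggaaggcatgggtatggggg
gso-mir482b-p5: tatgaggggattgggaaggaa
gso-mir1507a-p5: agaggtgtatggagtgagaga
gso-mir1507b-p5: agagAtgtatggagtgagaga
PC-3-5p: agaggtgtTtggGAtgagaga
The p5 strand of miR2218 was 22 nt long, as its partner was, whereas the 4 p5 strands of miR482 and miR1507 were 21 nt long beside partners of 22 nt. gso-mir1507a-p5 and gso-mir1507b-p5 differed by the substitution G5A alone. The predicted duplex of a p5 strand with its partner had 18 base pairs for miR2218, 19 for either p5 strand of miR1507 and 15 for gso-mir482b-p5. The best duplex of gso-mir482a-p5 had 10 base pairs and covered a part of the strands.

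To see how much of the listed reads the families held, their reads were summed. The study counted more known and predicted miRNA reads than the lists hold, so the shares below are not shares of all miRNA reads. The sum was 10325 reads for Al-free roots and 23803 for Al-treated roots, which were 34.0% (95% exact Clopper-Pearson interval 33.4 to 34.5) and 53.5% (53.0 to 54.0) of the listed reads. The remaining 209 sequences summed to 20086 and 20690 reads. The Al-treated list held a net 14082 more reads than the Al-free list. The net gain was 13478 reads (95.7% of this net) for the 3 families and 11777 (83.6%) for miR2218. Gains and losses among the remaining sequences partly cancelled. For example, PN-miR1509b had 190 reads in Al-free and 2232 in Al-treated roots, and gso-mir2109-p3 had 2655 and 1201. Relative to all other listed reads, the 3 families were 2.24 times as abundant in Al-treated roots (exact interval 2.17 to 2.31), a ratio that does not depend on how libraries are scaled. All intervals cover counting error only, since amplified reads without molecular identifiers are not independent molecules and no second library gave the spread between samples.

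Levels are given as RPM, reads scaled to 1000000 clean reads of the library as the study counted them, which include reads of mRNA and other RNA classes. The log2 ratio of Al-treated to Al-free levels was tested for each of the 130 listed sequences that reached 10 reads in a library. Of the 8 members 5 met this minimum, and 3 p5 strands did not. An adjusted p under 0.05 was found for 3 members, the abundant strands, all of them higher in Al-treated roots, and 2 p5 strands did not pass. Passing depends on the number of reads. PN-miR159a, with 2363 reads in Al-free and 2121 in Al-treated roots, passed at a log2 ratio of -0.21. The shares over all tested sequences that follow include many with far fewer reads than the abundant strands. Over all tested sequences 42.3% passed, 25.4% as higher and 16.9% as lower (33 and 22 sequences, against 22 and 39 with scaling by summed listed reads). The median log2 ratio of all tested sequences was 0.25, as was that of the 5 tested members. Beyond a log2 ratio of 1 or -1 there was 1 of the 5 members, gso-miR2218, on the higher side, where 26.9% of all tested sequences lay (43.1% on either side).

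gso-miR2218 was the most abundant listed sequence of both libraries. It had 7282 reads in Al-free roots and 19061 in Al-treated roots, or 1035 and 2616 RPM. The log2 ratio was 1.34 (interval 1.30 to 1.38), a 2.53-fold higher level, and its adjusted p in the exact binomial test was smaller than the software can represent. With libraries scaled by their summed listed reads, of which gso-miR2218 is itself a large share, the log2 ratio was 0.84 and within the threshold. gso-mir2218-p5, from the other arm of the precursor, had 132 reads in Al-free roots and 130 in Al-treated roots, or 18.8 and 17.8 RPM. Its log2 ratio was -0.07 (interval -0.43 to 0.29, adjusted exact binomial p = 0.783). It was -0.57 with scaling by summed listed reads and then passed the test (adjusted exact binomial p = 0.00498).

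The sequence shared by gso-miR482a and gso-miR482b ranked 5 in Al-free roots, with 1579 reads or 224 RPM, and 3 in Al-treated roots, with 2976 reads or 408 RPM. The log2 ratio was 0.86 (interval 0.78 to 0.95, adjusted exact binomial p = 7.44e-85), and the whole interval lay below the fold threshold. These reads could not be divided between gso-miR482a and gso-miR482b. Their p5 strands differ in sequence, but gso-mir482a-p5 had 2 reads in Al-free roots and 9 in Al-treated roots (log2 ratio 2.12, interval -0.15 to 5.37) and gso-mir482b-p5 had 1 read in each. No difference was detectable at this depth.

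The sequence shared by gso-miR1507a and gso-miR1507b ranked 6 in both libraries, with 1301 reads or 185 RPM in Al-free roots and 1601 reads or 220 RPM in Al-treated roots. The log2 ratio was 0.25 (interval 0.14 to 0.36, adjusted exact binomial p = 1.74e-05), equal to the median of all tested sequences. Its direction depended on the scaling. The log2 ratio was -0.25 (adjusted exact binomial p = 1.83e-05) with scaling by summed listed reads and 0.044 (adjusted exact binomial p = 0.555) with the median of ratios.

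The p5 strands tell the miR1507 precursors apart, but had few reads. gso-mir1507b-p5 had 23 reads in Al-free roots and 16 in Al-treated roots (log2 ratio -0.57, interval -1.59 to 0.41, adjusted exact binomial p = 0.392), and with scaling by summed listed reads it passed the test (-1.07, adjusted exact binomial p = 0.0476). gso-mir1507a-p5 had 5 and 9 reads, under the minimum. gso-mir1507b-p5 thus had 4.6 times the reads of gso-mir1507a-p5 in Al-free roots and 1.78 times in Al-treated roots. The exact interval of the quotient of these ratios, 0.0862 to 1.60, included 1.

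PC-3-3p, with the seed of miR1507, had 377 reads or 53.6 RPM in Al-free roots and 194 reads or 26.6 RPM in Al-treated roots. Its log2 ratio was -1.01 (interval -1.27 to -0.76, adjusted exact binomial p = 4.58e-15), opposite in direction to the miR1507 sequence when clean reads set the scale. PC-3-5p, its second strand, had 13 and 11 reads (log2 ratio -0.29, interval -1.59 to 0.98). PC-23-5p had 59 reads in Al-free roots and 38 in Al-treated roots (log2 ratio -0.69, interval -1.31 to -0.07, adjusted exact binomial p = 0.0571), and it passed the test with scaling by summed listed reads (-1.18), the median of ratios (-0.89) and the factors of the study (-0.79).

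**Figure D1:**
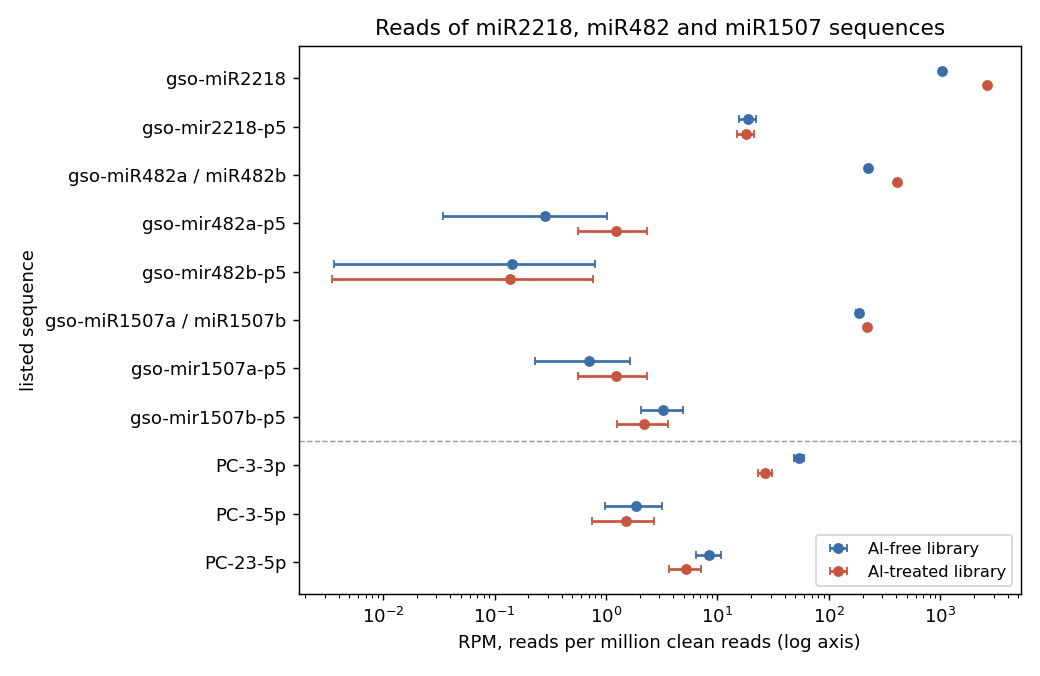
RPM on a log axis for the 8 member sequences, above the dashed line, and for 3 sequences, below it. The latter carry a family name in the study but not in the deposited lists. Points are the Al-free (blue) and Al-treated (red) small RNA library and bars are 95% Poisson intervals. gso-miR2218 lies at 1035 and 2616 RPM and its p5 strand at 18.8 and 17.8 RPM.

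**Figure D2:**
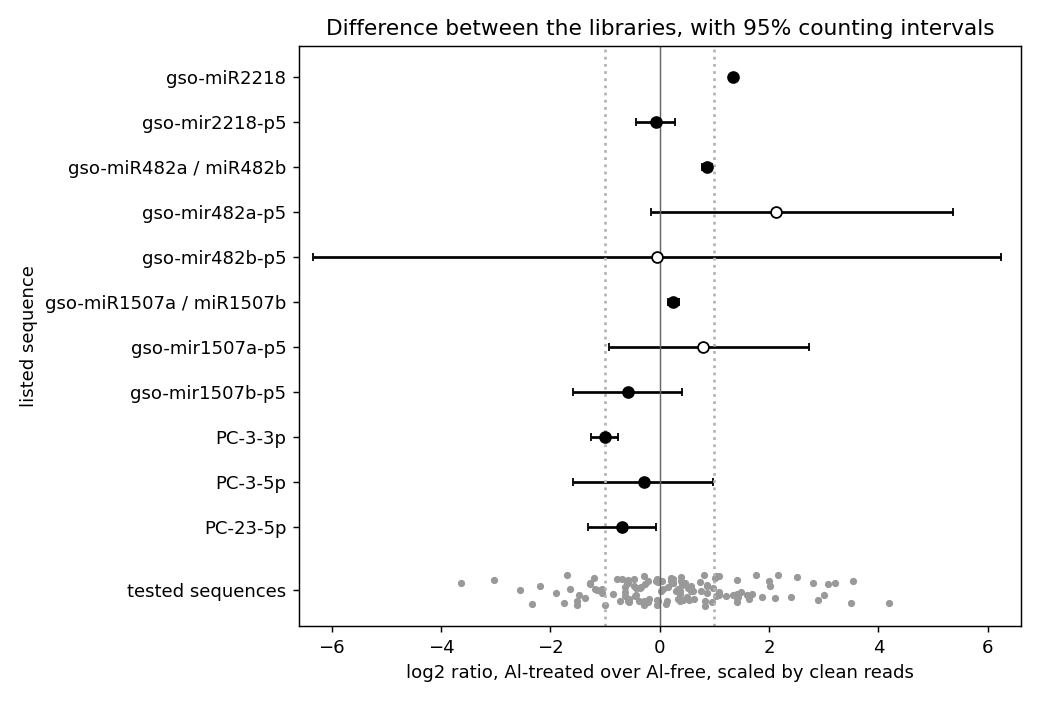
Log2 ratio of Al-treated to Al-free levels, scaled by clean reads, for the same sequences with 95% exact intervals. Filled points met the minimum of 10 reads, open points did not, dotted lines mark -1 and 1, and grey points are the 128 tested sequences with reads in both libraries. The abundant strands of miR2218, miR482 and miR1507 lie at 1.34, 0.86 and 0.25 and PC-3-3p at -1.01.

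The quotient of 2 sequences within a library does not depend on the scaling, so the 3 abundant strands and PC-3-3p were compared with each other in 6 pairs. gso-miR2218 had 4.61 times the reads of the miR482 sequence in Al-free roots and 6.40 times in Al-treated roots, a change of 1.39 times (exact interval 1.30 to 1.49). Its quotient to the miR1507 sequence was 5.60 in Al-free roots and 11.9 in Al-treated roots, a change of 2.13 times (1.97 to 2.30). The miR482 sequence had 1.21 times the reads of the miR1507 sequence in Al-free roots and 1.86 times in Al-treated roots, a change of 1.53 times (1.39 to 1.69). The 3 families therefore changed unequally, miR2218 most and miR1507 least.

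The quotients of gso-miR2218 and of the miR482 sequence to PC-3-3p changed more than those between families. For gso-miR2218 the change was 5.09 times (exact interval 4.26 to 6.09), and for the miR482 sequence it was 3.66 times (3.04 to 4.42). The miR1507 sequence, of the same seed, had 3.45 times the reads of PC-3-3p in Al-free roots and 8.25 times in Al-treated roots, a change of 2.39 times (1.97 to 2.90). This last interval overlapped that of gso-miR2218 to the miR1507 sequence (1.97 to 2.30). None of the 6 intervals included 1.

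Each family was also set against all other listed reads. miR2218 changed by 2.35 times (exact interval 2.28 to 2.43), miR482 by 1.31 times (1.23 to 1.40) and miR1507 by 0.830 times (0.770 to 0.894). On this scale miR1507 was lower in Al-treated roots, with 4.37% of the listed reads in Al-free roots against 3.65%. The other listed reads include gso-miR2218, whose share moved from 23.9% to 42.8%.

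Lengths were compared next. The 22-nt members held 99.7% of the reads of the 3 families in Al-free roots and 99.9% in Al-treated roots, and the p5 strands of 21 nt held 31 and 35 reads. Each member name is listed with a single sequence, so length variants of a member are not in these counts. Among all listed reads, those of 22 nt made up 49.8% (exact interval 49.2 to 50.3) in Al-free roots and 66.7% (66.3 to 67.2) in Al-treated roots. The families held 68.0% (67.3 to 68.8) and 80.1% (79.6 to 80.5) of these 22-nt reads. With gso-miR2218 left out, the share of 22 nt was 33.9% in Al-free roots and 41.8% in Al-treated roots. The other 30 sequences of 22 nt summed to 4836 and 5923 reads, and relative to them the 22-nt members changed by 1.89 times (1.80 to 1.97). Sequences of 21 nt summed to 12503 and 12520 reads.

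**Figure D3:**
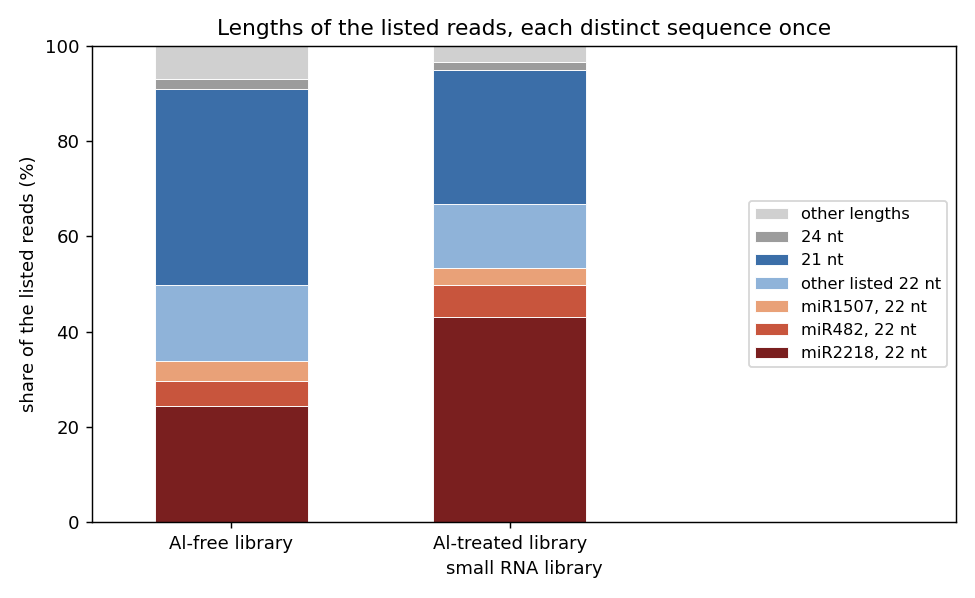
Share of the listed reads in percent, by length, in the Al-free and Al-treated small RNA library, with the 22-nt reads divided by family. All 22-nt parts together reach 49.8% and 66.7%, and the 22-nt reads of miR2218 alone reach 24.4% and 43.1%.

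Strand shares were compared within each precursor, which also needs no scaling. In all 5 precursors of the families the p5 strand had fewer reads than its partner sequence in both libraries. For miR482 and miR1507 the reads of the partner are shared between precursors, so its reads from each precursor are unknown. The p5 strand of miR2218 held 1.78% (exact interval 1.49 to 2.11) of 7414 reads of both strands in Al-free roots and 0.677% (0.566 to 0.804) of 19191 reads in Al-treated roots. This fall passed Fisher's exact test (adjusted exact p = 2.15e-13, over all 55 precursors with both strands listed). It was the single one of the 5 precursors to pass, where 12.7% of all precursors passed, and 3.64% passed with a lower share in Al-treated roots. Over the 55 precursors the median share of the second strand was 10.3% in Al-free roots and 20% in Al-treated roots. Over the 33 precursors with at least 10 reads in each library it was 2.61% and 4.08%.

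For the other precursors the abundant strand is shared, so each share below is a lower limit for its own precursor. gso-mir1507b-p5 held 1.74% of the reads of its pair in Al-free roots and 0.989% in Al-treated roots (adjusted exact p = 0.381), and gso-mir1507a-p5 held 0.383% and 0.559% (adjusted exact p = 0.936). gso-mir482a-p5 held 0.127% and 0.302% (adjusted exact p = 0.768), and gso-mir482b-p5 held 0.0633% and 0.0336% (adjusted exact p = 1). Summed per family, the odds of a p5 read changed by 0.376 times for miR2218 (exact interval 0.293 to 0.484), by 1.77 times for miR482 (0.454 to 10.0) and by 0.726 times for miR1507 (0.404 to 1.30). The intervals of miR482 and miR1507 included 1, and that of miR482 was wide. The value of miR482 rests mostly on gso-mir482a-p5, which gave 9 of the 10 p5 reads in Al-treated roots. Its predicted duplex covered only a part of the strands, so its place as the second strand rests on its listed name.

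**Figure D4:**
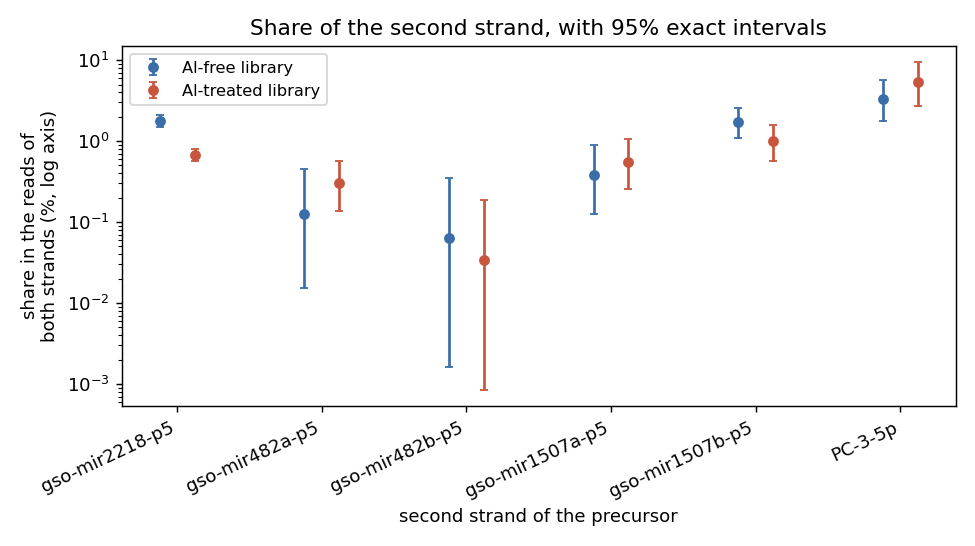
Share of the second strand in the reads of both strands of a precursor, in percent on a log axis, with 95% exact intervals, for the Al-free (blue) and Al-treated (red) small RNA library. The intervals of gso-mir2218-p5, at 1.78% and 0.677%, do not overlap, and those of the other 5 strands do.

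As further members of the pathway, the 13 listed sequences of miR1509, miR1510, miR1514, miR2109 and miR393 were taken, miRNAs known in legumes to start phased siRNAs or to pair with NB-LRR transcripts. Of these 10 met the read minimum, and 4 were higher and 3 lower in Al-treated roots by the adjusted p. They summed to 8464 reads in Al-free roots and 8125 in Al-treated roots, and relative to them the 3 families changed by 2.40 times (exact interval 2.31 to 2.50). Most of the 13 were not of 22 nt. The 4 of 22 nt summed to 4250 and 5339 reads (log2 ratio 0.28, interval 0.22 to 0.34), so the change relative to these alone was smaller. miR1509, which held most of the other 22-nt reads, summed to 4243 and 5341 reads (log2 ratio 0.28, interval 0.22 to 0.34), but its 22-nt sequences went opposite ways. PN-miR1509b had 190 reads in Al-free roots and 2232 in Al-treated roots (log2 ratio 3.50, interval 3.29 to 3.72), above the interval of gso-miR2218, whereas gso-miR1509a had 4040 and 3068 reads (log2 ratio -0.45, interval -0.52 to -0.38). miR2109, known in *Medicago* to pair with NB-LRR transcripts as miR1507 does, summed to 3451 and 1844 reads (log2 ratio -0.95, interval -1.04 to -0.87). Most of these were reads of the strand gso-mir2109-p3, with 2655 and 1201 (log2 ratio -1.20, interval -1.29 to -1.10). The sequence gso-miR2109 itself had 796 and 643 reads (log2 ratio -0.36, interval -0.51 to -0.21). miR1510 summed to 737 and 844 reads (log2 ratio 0.14, interval 0.00059 to 0.29), of which 507 and 544 were of the strand gso-mir1510b-p5. miR1514, with 12 and 54 reads (log2 ratio 2.12, interval 1.20 to 3.16), and miR393, with 21 and 42 reads (log2 ratio 0.95, interval 0.16 to 1.78), had few reads and wide intervals. Beside these stood the family sums of miR2218 at 1.32 (1.28 to 1.36), miR482 at 0.87 (0.78 to 0.95) and miR1507 at 0.24 (0.13 to 0.35). The miR1507 sum leaves out PC-3-3p (log2 ratio -1.01) and PC-3-5p (-0.29), which the study names in that family. The intervals of miR2218 and miR482 lay above those of the sums of miR1509, miR1510 and miR2109. Both overlapped that of miR393, and miR1514 overlapped miR2218 and lay above miR482, so a higher level in Al-treated roots was not particular to the 3 families.

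The degradome lists name transcripts found cut by each miRNA. The list of Al-free roots had 46 lines and that of Al-treated roots had 85. In each, 0 lines named miR2218, miR482, miR1507 or the candidates PC-3 and PC-23. The lines held 17 distinct miRNA names in Al-free roots and 22 in Al-treated roots, whereas the small RNA lists held 219 and 227 names. Most listed miRNAs thus had no line, and an absence was not particular to these families. The pathway miRNAs had 9 lines with 8 distinct genes in Al-free roots and 19 lines with 11 distinct genes in Al-treated roots, where 8 lines repeated the pair of gso-miR1510 and Glyma02g04750. The study describes several different genes as cut by gso-miR1510 in Al-treated roots, so the repeated identifier appears to be an error in the list. The 11 genes are a count of the identifiers as deposited and are therefore probably too low. The study gives read totals for both degradome libraries, but the lists hold no read counts. The reads at possible sites of an absent name are thus unknown, and cleavage below the limits of the calls was not tested.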

How the data were processed

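The authors removed reads with no adaptor, reads under 15 bases and junk reads, set aside clean reads that hit Rfam, repeats or mRNA of *Glycine max*, and assigned miRNAs by comparison with miRBase, allowing up to 2 mismatches (ACGT101-miR 4.2). They deposited raw counts of reads per name and sequence, not normalized. The deposited target lists (CleaveLand 3.0, ACGT301-DGE 1.0) pair names with genes and hold no value.

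Each distinct sequence was counted once. Levels were scaled by the study's clean reads, because the lists hold part of each library and the method behind the study's normalized reads is not given in the sources used here. Exact two-sided binomial tests with Clopper-Pearson intervals ran on every sequence that reached 10 reads in a library, and two-sided Fisher's exact tests on every precursor with both strands listed. Benjamini-Hochberg adjustment was over each whole table (Python 3.11.15, SciPy 1.17.1, NumPy 2.4.6, matplotlib 3.10.9). Duplexes were predicted with RNAduplex (ViennaRNA 2.7.2). Procedures were tested on simulated counts of independent reads, without spread between samples or amplification, so this check covers counting error only. All members are named, and the members and lists were chosen with earlier results of these data known. At 30411 and 44493 listed reads, log2 intervals ran from 1.30 to 1.38 for gso-miR2218 and from -1.59 to 0.41 for gso-mir1507b-p5. Alternatives were other scalings, read minimums, 1 added read, another test and counting by name. Genome positions and raw reads were not used here.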

Additional observations from a re-analysis of the deposited data

How the results depend on the processing

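Relative to clean reads, all log2 ratios moved by -0.50 when the libraries were scaled by summed listed reads, by -0.20 with the median of ratios over 82 sequences and by -0.11 with the factors between the study's normalized and raw reads. Under these 3 scalings in this order, the log2 ratio of the family sum, 1.32 in the main analysis for miR2218, was 0.82, 1.12 and 1.21. For miR482 it was 0.87 in the main analysis and then 0.37, 0.66 and 0.76. For miR1507 it was 0.24 and then -0.26, 0.036 and 0.13, and for the sum of the 3 families 1.15 and then 0.66, 0.95 and 1.05. With each name counted the last was 1.05. The sequence of gso-miR1507a and gso-miR1507b alone was at -0.25 with summed reads (adjusted exact binomial p = 1.83e-05) and at 0.044 with the median of ratios (adjusted p = 0.555 in the same exact test). Scaling by the listed reads outside the 3 families or by the reads used for miRNA prediction, adding 1 read, or Fisher's exact test changed no call of a member. The strands gso-mir2218-p5 (-0.57, adjusted exact binomial p = 0.00498) and gso-mir1507b-p5 (-1.07, adjusted exact binomial p = 0.0476) passed the test under scaling by summed reads only.

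Over all sequences, 35 were past the fold threshold in the higher and 21 in the lower direction, and with scaling by summed reads these were 21 and 34. With 10 reads in both libraries they were 16 and 9, with no minimum 67 and 37, and with 50 reads 8 and 8. Sequences with an adjusted p under 0.05 numbered 33 higher and 22 lower. With scaling by summed reads they numbered 22 higher and 39 lower, and with a minimum of 50 reads 16 higher and 18 lower. These changes follow from the scaling and from the number of sequences tested.

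With each name counted, the shares of the listed reads in the Al-free and the Al-treated library were 20.8% and 37.2% for miR2218, 8.88% and 11.5% for miR482, 7.39% and 6.25% for miR1507 and 37.1% and 55.0% for the 3 families. With predicted candidates left out they were 26.5% and 45.7%, 5.65% and 7.11%, 4.74% and 3.87%, and 36.9% and 56.7%. The share of 22 nt in the Al-free library was 50.6% with each name counted. With gso-miR2218 left out it was 33.9% for Al-free and 41.8% for Al-treated roots. The strand share of gso-mir2218-p5 passed its test also when 10 reads per precursor were required in each library. No paired analysis was possible because each condition had 1 library. With fewer than 10 reads, 3 of the 5 p5 strands were left out of the test of the log2 ratio.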
